A study of Mus musculus with 2 samples.

Results

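Metallothioneins are small cysteine-rich proteins that bind zinc and copper, and in mouse macrophages the 2 broadly expressed ones are encoded by Mt1 and Mt2. These 2 genes were followed here in tumor mononuclear phagocytes (TMPs) together with 3 genes of the same zinc circuit, Mtf1, Slc30a1 and Slc39a1. The 5 genes were selected on earlier results from these same libraries, in which metallothionein transcripts were lower without Fcmr, so the differences between genotypes are given as a description and not as a test. They were found by symbol among the 27998 genes of the count tables, and each symbol matched 1 gene. MTF1, the product of Mtf1, is a transcription factor that senses free zinc and binds short DNA sites called metal response elements upstream of the metallothionein genes and of Slc30a1. SLC30A1 (ZnT1) is the zinc exporter of the plasma membrane and SLC39A1 (ZIP1) is a zinc importer. Macrophages are known to move zinc between these proteins during activation, and metallothionein genes are also known to respond to glucocorticoids, cytokines, low oxygen and oxidative stress.

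The cells came from B16 melanoma tumors, a transplanted mouse melanoma line, that had grown in C57Bl/6 mice, and were sorted as MerTk+ CD64+ phagocytes. One library held cells of Fcmr+/+ mice and 1 held cells of Fcmr-/- mice, which carry a germline deletion of Fcmr, the putative receptor for soluble IgM, in every cell type. Per the methods, the controls were littermates matched for age, sex and cage, and no other treatment or allele was named for either group. The age of the mice and the number of animals in a library are not given in the sources used here. Tumors were digested with enzymes while warm before the sort, a step known to induce immediate-early genes. After filtering, 6352 Fcmr+/+ and 7999 Fcmr-/- cells remained. With 1 library per genotype there was no replicate error to set a difference against, no test was made, and each interval below is a 95% interval that covers counting error only.

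The libraries differed in depth per cell. The median was 17973.5 UMIs (unique molecular identifiers, counts of captured transcripts) per cell in Fcmr+/+ and 12911 in Fcmr-/-, with total UMIs of 128408544 and 124630621. Fcmr itself gave 7 UMIs in Fcmr+/+ and 6 in Fcmr-/-, too few to check the genotype labels. Xist was abundant and the Y-linked Ddx3y had 0 UMIs in both libraries, so both libraries came from female mice. The 9 macrophage markers, among them Mertk, Fcgr1 (CD64) and Csf1r, summed to 17557 CPM (counts scaled to a library total of 1000000 UMIs) in Fcmr+/+ and 17517 in Fcmr-/-, so the markers of the sort were present in both. Only 73 cell barcodes, or 1.14% of the smaller library, occurred in both libraries.

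The 2 metallothionein genes are neighbors. In the GRCm38 build, Mt2 (ENSMUSG00000031762) lies at chr8:94172664-94173568 and Mt1 (ENSMUSG00000031765) at chr8:94179082-94180327, both protein-coding genes on the plus strand and 5513 bases apart. Mtf1 (ENSMUSG00000028890) lies at chr4:124802104-124849800, Slc30a1 (ENSMUSG00000037434) at chr1:191906767-191913247 and Slc39a1 (ENSMUSG00000052310) at chr3:90248172-90253612, also on the plus strand. The bases just before the annotated start of Mt1, Mt2 and Slc30a1, the 3 genes with a textbook link to MTF1, are shown because the pair moved together and Slc30a1 did not. They come from RefSeq (GRCm38.p6, plus strand, 5′ to 3′), and capitals mark the core of the metal response element, TGCACNC or TGCGCNC on either strand. The stretches cover chr8:94178839-94179081 for Mt1, chr8:94172368-94172617 for Mt2 and chr1:191906531-191906766 for Slc30a1.
Mt1: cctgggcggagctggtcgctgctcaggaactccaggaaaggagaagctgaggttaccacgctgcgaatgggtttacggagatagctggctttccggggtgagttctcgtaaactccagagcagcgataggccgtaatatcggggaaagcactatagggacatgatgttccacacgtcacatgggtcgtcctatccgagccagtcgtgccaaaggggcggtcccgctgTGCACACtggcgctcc
Mt2: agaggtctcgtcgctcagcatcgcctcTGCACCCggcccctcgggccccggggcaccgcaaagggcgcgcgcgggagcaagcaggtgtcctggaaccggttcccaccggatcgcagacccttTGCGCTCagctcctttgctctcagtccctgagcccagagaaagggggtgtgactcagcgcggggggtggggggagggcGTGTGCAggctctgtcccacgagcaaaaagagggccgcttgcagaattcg
Slc30a1: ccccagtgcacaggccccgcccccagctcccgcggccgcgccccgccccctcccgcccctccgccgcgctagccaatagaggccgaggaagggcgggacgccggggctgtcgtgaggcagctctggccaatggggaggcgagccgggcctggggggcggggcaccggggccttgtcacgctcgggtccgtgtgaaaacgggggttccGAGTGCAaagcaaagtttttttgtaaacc
The Mt2 window held 3 cores, 223, 128 and 50 bases before the RefSeq start, and none of them overlapped another. The Mt1 window held 1 core, 23 bases before the start, and the Slc30a1 window held 1, on the reverse strand and 43 bases before it. The windows of Mtf1 and Slc39a1 held 0. Across all 32851 RefSeq windows of 250 bases, 21.4% held at least 1 core and 1.26% held at least 3. The annotated start of Mt1 is the earliest of several, and the first 250 bases of its longest transcript, which follow the stretch printed above, held 4 further cores. The first 250 bases of an Mt2 transcript held 3 cores and those of a Slc30a1 transcript held 1. Those of Mtf1 and Slc39a1 held 0. Of 58447 protein-coding transcripts, 0.192% held 4 or more in their first 250 bases, 0.828% held 3 or more and 22.4% at least 1. These matches describe letters in the windows and are not evidence of binding in TMPs.

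Mt1 and Mt2 were both lower in the Fcmr-/- library, and Mt2 by more. Mt1 stood at 1853 CPM in Fcmr+/+ (238001 UMIs, interval 1846 to 1861) and at 1023 CPM in Fcmr-/- (127456 UMIs, interval 1017 to 1028). Mt2 stood at 445 CPM in Fcmr+/+ (57196 UMIs, interval 442 to 449) and at 121 CPM in Fcmr-/- (15069 UMIs, interval 119 to 123). Neither pair of intervals overlapped. After 1 CPM was added to each level, the log2 ratio of Fcmr-/- over Fcmr+/+ was -0.86 (-0.87 to -0.85) for Mt1 and -1.87 (-1.90 to -1.85) for Mt2, or 1.81-fold and 3.66-fold lower. Among the 8701 genes with at least 5 CPM in either library, Mt2 had the lowest ratio of all and Mt1 ranked 42 from the lowest. For comparison, 0.287% of the 8701 genes were at least 2-fold lower and 0.793% at least 2-fold higher in Fcmr-/-. The ratio was below 0 for 4306 of these genes and above 0 for 4395. The median ratio over all of them was 0.0023, and the 5th and 95th percentiles were -0.38 and 0.36. Because the members were chosen with this contrast known, nothing was read from their place against that background.

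The sensor and the transporters stood close to even. Mtf1 was at 20.5 CPM in Fcmr+/+ and 19.8 CPM in Fcmr-/-, a log2 ratio of -0.04 whose interval (-0.12 to 0.03) includes 0. Slc39a1 was at 70.0 CPM in Fcmr+/+ and 68.4 CPM in Fcmr-/-, a log2 ratio of -0.03 (-0.08 to 0.01). Slc30a1, the exporter, was at 41.6 CPM in Fcmr+/+ and 47.2 CPM in Fcmr-/-, a log2 ratio of 0.18 (0.12 to 0.23). The direction of Slc30a1 depended on which cells were counted: the mean of its ratios within clusters was -0.04, and without the 2 clusters made up almost wholly of Fcmr-/- cells it was -0.01. UMIs count molecules captured at their 3′ ends and do not grow with transcript length. In that unit Mt1 was the most abundant member in both libraries and Mtf1 the least. Slc30a1 overlaps 1700034H15Rik and Mtf1 overlaps 1110065P20Rik on the opposite strand, and how overlapping reads were resolved is not given in the sources used here. Mt1 and Mt2 transcripts share no identical run longer than 20 bases, and none longer than 12 within their last 200 bases.

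**Figure D1:**
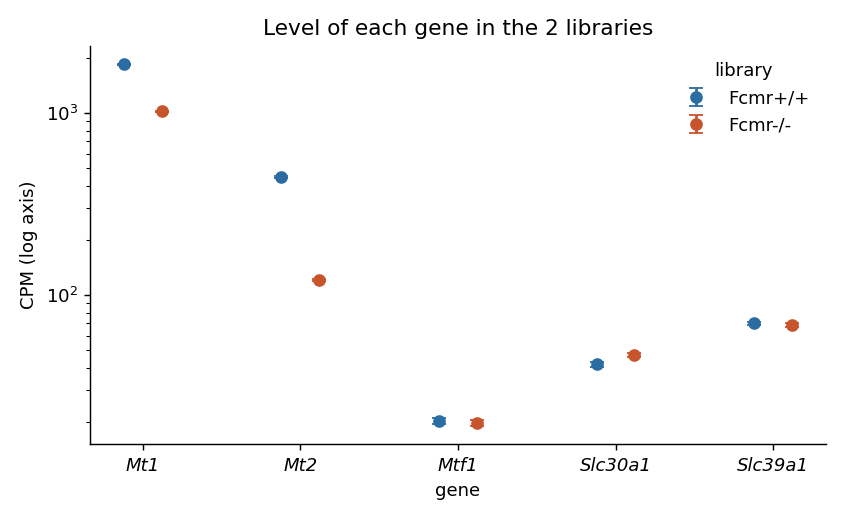
CPM (log axis) of the 5 genes in the Fcmr+/+ library (blue) and the Fcmr-/- library (orange), with exact Poisson 95% intervals that cover counting error only. Mt1 is at 1853 and 1023 and Mt2 at 445 and 121, while Mtf1, Slc30a1 and Slc39a1 lie almost side by side.

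The 2 remaining metallothioneins were scarce or absent. Mt3, known from brain, had 187 UMIs (1.46 CPM) in Fcmr+/+ and 54 UMIs (0.433 CPM) in Fcmr-/-. Its log2 ratio was -0.78 (-0.95 to -0.61), in the same direction as Mt1 and Mt2, but it fell under the 5 CPM filter in both libraries. Mt4, known from stratified epithelium, had 0 UMIs in both libraries. Such a zero still leaves room for as many as 3 UMIs.

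The other zinc transporters were taken as whole families. Of the 10 SLC30 genes, which carry zinc out of the cytosol into vesicles, the Golgi or the medium, 5 passed 5 CPM in either library. All 5 ratios were above 0, from 0.02 to 0.18, beside 4395 of all 8701 genes, and none reached 2-fold. The intervals of Slc30a5 (-0.02 to 0.11) and Slc30a7 (-0.05 to 0.09) included 0. Slc30a9 and Slc30a5 were at 28.3 and 28.5 CPM in Fcmr+/+ and at 31.0 and 29.5 CPM in Fcmr-/-. Slc30a7 was at 25.6 and 25.9 CPM and Slc30a6 at 7.84 and 8.88 CPM, in the same order of libraries. Of the 14 SLC39 genes, which carry zinc into the cytosol, 10 passed the filter. Their ratios had a median of -0.06, with 2 above and 8 below 0, beside 4306 of all 8701 genes below 0, and none reached 2-fold. Slc39a8 (ZIP8), an importer known to be induced in activated macrophages, had the lowest ratio, -0.46, from 5.26 CPM in Fcmr+/+ to 3.55 CPM in Fcmr-/-. It passed the filter only through Fcmr+/+, which favors a low ratio, so nothing was read from its place. Slc39a7, which releases zinc from the endoplasmic reticulum, was at 45.9 and 39.2 CPM (-0.22), and Slc39a11 at 19.1 and 16.3 CPM (-0.22). Slc39a14, which also carries iron, was nearly level at 20.9 and 19.98 CPM. Slc39a6 had the highest ratio, 0.15, from 20.4 to 22.8 CPM. Slc39a3, Slc39a9, Slc39a10 and Slc39a13 had ratios between -0.09 and 0.05. Apart from Slc39a8, every transporter that passed the filter thus lay within the 5th to 95th percentile range of all genes.

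Other genes that have been reported to depend on MTF1 had a median ratio of -0.23 over 5 genes, 2 above and 3 below 0. Pgf, a growth factor of the VEGF family, was at 7.40 CPM in Fcmr+/+ and 4.36 CPM in Fcmr-/- (-0.65), and passed the filter only through Fcmr+/+. Ndrg1, which is also a hypoxia gene, was at 224 and 180 CPM (-0.32), and Gclc, an enzyme of glutathione synthesis, at 35.9 and 30.5 CPM (-0.23). Sepw1, a selenoprotein, had a ratio of 0.08. Copper handling genes, whose ions metallothioneins also bind, had a median ratio of 0.08 over 8 genes and none past 2-fold. Their widest ratios were 0.32 for Cox17 and 0.28 for Slc31a2. Among the listed genes for zinc and copper handling with at least 5 CPM in either library, Mt2 was the one past 2-fold.

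The lists for other known inducers of metallothioneins differed from one another. Of the glucocorticoid response genes, 9 passed the filter, 8 had a ratio below 0 and 2 were past 2-fold lower, with a median of -0.14. Over all 8701 genes, 4306 had a ratio below 0. Fkbp5, a co-chaperone of the glucocorticoid receptor, was at 40.4 CPM in Fcmr+/+ and 11.7 CPM in Fcmr-/- (-1.70). Klf9, a transcription factor, was at 42.6 and 13.8 CPM (-1.56). Tsc22d3 (GILZ) was at 234 and 161 CPM (-0.54) and Per1 at 69.6 and 59.7 CPM (-0.22). Zbtb16 fell under the filter, at 4.63 and 0.963 CPM. Nr3c1, the receptor gene, was at 67.0 and 72.7 CPM. The 2-fold lower genes of this list were 2 of its 9, beside 0.287% of all genes. The list was chosen with earlier results of these data known, so nothing was read from this share.

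Among 8 NRF2 targets, the oxidative stress response, 7 had a ratio below 0, beside 4306 of all 8701 genes, and the median was -0.27. Hmox1, which breaks down heme, was at 2998 CPM in Fcmr+/+ and 1721 CPM in Fcmr-/- (-0.80), and Gclm, Srxn1 and Txnrd1 had ratios of -0.40, -0.36 and -0.28. The 12 hypoxia genes had a median of 0.06 and went both ways, from -0.47 for Ankrd37 and -0.43 for Adm to 0.50 for Vegfa and 0.67 for Pgk1. The 7 STAT3 response genes had a median of -0.14, with Bcl3 at -0.35 and Socs3 at -0.32. The 10 genes of dissociation and heat shock had a median of -0.12, with 5 above and 5 below 0. Within that list 1 gene, Egr1, was 2-fold lower, at 201 and 72.8 CPM (-1.46), beside 0.287% of all genes. Jun was at 483 and 296 CPM (-0.70), and Hspa1a was nearly level at 259 and 273 CPM. Hsph1 had the highest ratio of the list, 0.43, at 29.7 and 40.2 CPM. The type I interferon list stood higher in Fcmr-/- with a median of 0.51, and the type II list with a median of 1.52. In the type II list 7 of 10 genes were past 2-fold higher, led by Iigp1 and Cxcl9, beside 0.793% of all genes. Iigp1, at 3.19 CPM in Fcmr+/+ and 72.6 CPM in Fcmr-/-, passed the filter only through Fcmr-/-, which favors a high ratio. These lists were chosen with earlier results of these data known and were measured in the same 2 libraries as Mt1 and Mt2. Whether any of them bears on the metallothioneins was not tested.

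**Figure D2:**
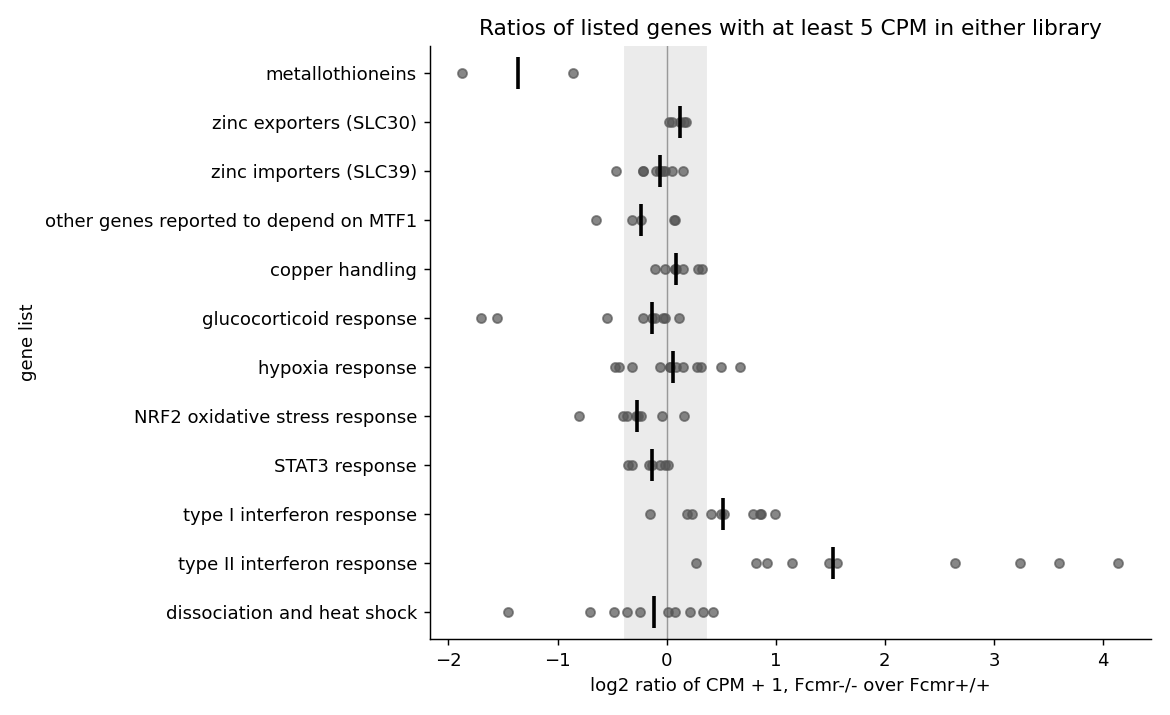
Log2 ratio (CPM + 1, Fcmr-/- over Fcmr+/+) of each listed gene with at least 5 CPM in either library, by list, with the list median as a vertical tick. The gray band spans the 5th to 95th percentile of all 8701 genes (-0.38 to 0.36). The metallothioneins and a few genes of the zinc importer, MTF1, glucocorticoid, NRF2, hypoxia and dissociation lists lie to its left. Many interferon genes and a few hypoxia and heat shock genes lie to its right. Other interferon genes, such as Ifit1 (-0.15) and Irf1 (0.27), lie inside it.

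To separate depth from level, every cell was thinned to 5000 UMIs, and no cell was left out since each held more. Mt1 was then seen in 96.3% of Fcmr+/+ cells (95.8 to 96.8) and in 90.1% of Fcmr-/- cells (89.4 to 90.7). Mt2 was seen in 50.3% of Fcmr+/+ cells (49.0 to 51.5) and in 22.9% of Fcmr-/- cells (22.0 to 23.9). At full depth the shares were 99.4% and 97.0% for Mt1 and 72.6% and 37.3% for Mt2. Most TMPs of either genotype thus held Mt1 transcripts. Mt2 was found in a minority of Fcmr-/- cells at both depths. In Fcmr+/+, the deeper library, Mt2 was found in most cells at full depth, but its thinned share was 50.3% (49.0 to 51.5). Mtf1 was seen in 10.2% of thinned Fcmr+/+ cells and 9.14% of Fcmr-/- cells, Slc30a1 in 17.4% and 18.3%, and Slc39a1 in 27.7% and 28.5%. For Slc30a1 the full-depth shares, 44.9% and 39.8%, ran against its CPM, so no order was read from them. No cell type in the sort is known to lack Mt1 or Mt2, so the share that free RNA alone would give is not known.

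The lower Mt1 level in Fcmr-/- was seen at the 25th percentile of cells as well as at the middle and upper percentiles. The median Fcmr+/+ cell had 6 Mt1 UMIs among its 5000 and the median Fcmr-/- cell had 3. At the 90th percentile the values were 20 and 12, and at the 99th they were 52 and 37. At the 25th percentile the values were 3 and 1. At the 10th percentile both libraries had 1, and 3.67% of Fcmr+/+ cells and 9.90% of Fcmr-/- cells had no Mt1 UMI. The single highest cell, with 201 Mt1 UMIs, was an Fcmr-/- cell, against a maximum of 106 in Fcmr+/+. At least 10 Mt1 UMIs were held by 34.3% of Fcmr+/+ cells and 14.3% of Fcmr-/- cells, and at least 5 Mt2 UMIs by 14.4% and 3.70%. Both genes were far more variable than counting alone would give, with variance-to-mean ratios of 11.2 and 11.3 for Mt1 and 10.1 and 9.89 for Mt2. Mtf1 had ratios of 1.01 and 1.02 and Slc30a1 had 1.26 and 1.37. For a given relative spread over cells, this ratio lies nearer 1, the value for counting noise, the fewer UMIs a gene has per cell. Few UMIs alone did not bring it to 1, as Mt2 in Fcmr-/- had 9.89 on a mean of 0.672 UMIs. Mtf1 and Slc30a1 had fewer UMIs per cell still and were therefore not compared with Mt1 and Mt2 in how variable they were. The 10% of cells richest in Mt2 held 60.0% of its UMIs in Fcmr+/+ and 79.5% in Fcmr-/-, and for Mt1 the shares were 35.2% and 41.1%. Such a share grows as the mean count falls, and Mtf1, with few UMIs per cell, had 98.7% and 100%. No difference in how unevenly cells held metallothionein was therefore read from it.

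**Figure D3:**
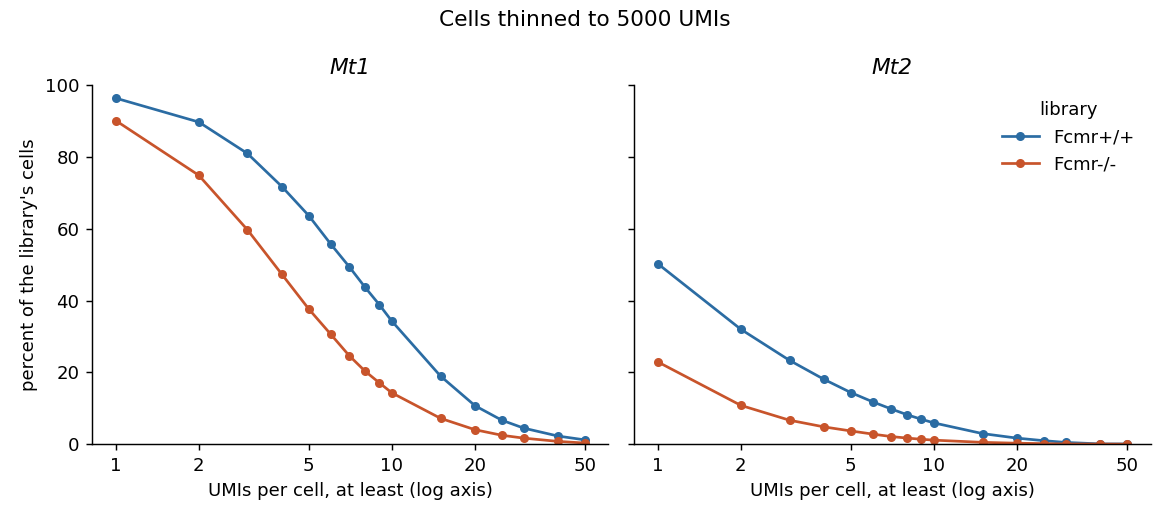
Percent of each library's cells (y axis) with at least the given number of Mt1 (left) or Mt2 (right) UMIs (x axis, log) after thinning to 5000 UMIs, Fcmr+/+ in blue and Fcmr-/- in orange. The Fcmr-/- curve runs below the Fcmr+/+ curve for both genes, for example 14.3% against 34.3% at 10 or more Mt1 UMIs.

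Macrophage states were then compared. The cells of both libraries were clustered together without any zinc gene among the variable genes, which gave 11 clusters. A cluster was named where at least 3 markers of 1 list were among its 20 leading genes and some of them led it. Cluster 3 (Cxcl3, Il1a, Il1b) was called inflammatory-like, cluster 5 (Cenpf, Ube2c, Top2a) dividing, cluster 8 (Gpnmb, Spp1) lipid-associated-like and cluster 10 (Rsad2, Ifit1, Ifit3) type I interferon-high. Cluster 6 (Adm, Egln3, Slc2a1), whose leading genes also include the hemoglobin genes Hbb-bs and Hba-a1, was called hypoxic-like. Clusters 4 and 9 (Gbp2, Gbp4, Cxcl9) were type II interferon-high and cluster 4 was led by the monocyte gene Ly6c2. They were composed almost wholly of Fcmr-/- cells, with 68 and 34 Fcmr+/+ cells against 1533 and 900. Clusters 1 (led by Ccl17 and Il1r2), 2 (Tfrc and Gas6), 7 (Acp5 and Apoe) and 11 (Adm and Cdk18) were left unnamed. Cluster 1 had 4 monocyte-like markers (Vcan, Ccr2, Hp and Plac8) and 3 MHC class II-high markers among its 20 leading genes, but none of them led it. Cluster 11 also counted the melanocyte gene Dct among its leading genes.

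Mt1 and Mt2 were lower in Fcmr-/- in every one of the 11 clusters, with all intervals of the ratio below 0. Over the 10 clusters with at least 50 cells of each library, which leaves out cluster 9, the mean log2 ratio was -0.72 for Mt1 and -1.64 for Mt2. The ratio of Mt1 was lowest in the type I interferon-high cluster 10, from 2272 CPM in Fcmr+/+ to 1101 CPM in Fcmr-/- (-1.04), and in cluster 7, from 1407 to 716 CPM (-0.97). The ratio of Mt2 was lowest in the same clusters, from 206 to 39.4 CPM in cluster 7 (-2.35) and from 686 to 142 CPM in cluster 10 (-2.26). The smallest difference for both genes was in the hypoxic-like cluster 6. There Mt1 was at 2314 CPM in Fcmr+/+ and 1994 CPM in Fcmr-/- (-0.21), and Mt2 at 657 and 400 CPM (-0.72). That cluster made up 10.3% of the cells of each library.

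The order of the clusters was similar for the 2 genes. Mt1 was highest in cluster 11 in Fcmr+/+ (2568 CPM) and in the hypoxic-like cluster 6 in Fcmr-/- (1994 CPM), with cluster 11 next at 1791 CPM. Mt2 was also highest in cluster 11 in Fcmr+/+ (862 CPM), and in Fcmr-/- it was near 400 CPM in cluster 6 and 378 CPM in cluster 11, which held intervals that overlapped. Clusters 10 and 6 followed in Fcmr+/+, with 686 and 657 CPM of Mt2 and overlapping intervals. The lowest Mt2 levels were in cluster 7 and in the type II interferon-high clusters 4 and 9, at 39.4, 60.3 and 57.9 CPM in Fcmr-/-. Mt1 was also lowest in clusters 7 and 9, with the dividing cluster 5 next, at 1506 CPM in Fcmr+/+ and 841 CPM in Fcmr-/-. Between the highest and the lowest of the 10 clusters, Mt1 differed 1.83-fold in Fcmr+/+ and 2.79-fold in Fcmr-/-, and Mt2 differed 4.45-fold and 10.1-fold. The genotype difference in Mt1 between the libraries was 1.81-fold. That was about as large as the difference between the extremes of these 10 clusters in Fcmr+/+. Cluster 9 was not among the 10 and stood lower, at 1082 CPM of Mt1 in its 34 Fcmr+/+ cells.

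**Figure D4:**
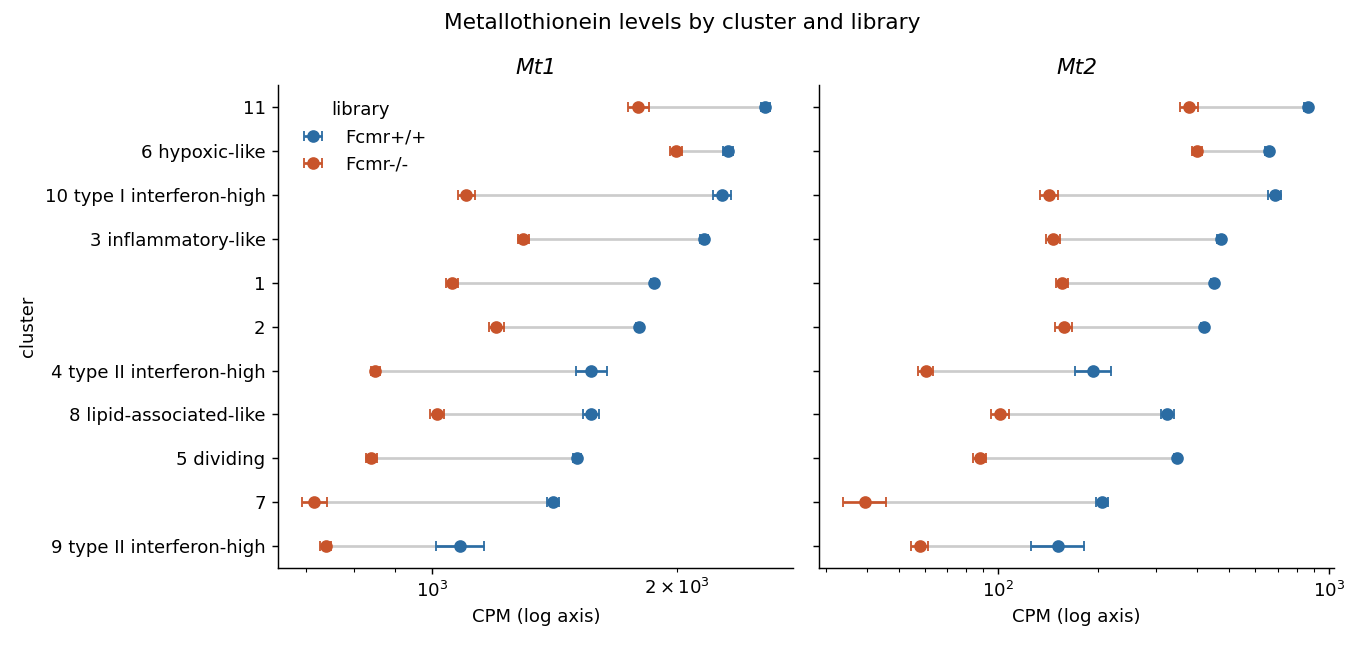
CPM (log axis) of Mt1 (left) and Mt2 (right) in each cluster (y axis, ordered by Mt1 in Fcmr+/+), for Fcmr+/+ cells (blue) and Fcmr-/- cells (orange), with exact Poisson 95% intervals. The Fcmr-/- point lies left of the Fcmr+/+ point in all 11 clusters and the pair lies closest in cluster 6 for both genes.

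By cluster and after thinning, Mt1 was seen in 88.2% to 98.2% of Fcmr+/+ cells and in 85.1% to 96.0% of Fcmr-/- cells. The share of cells with Mt2 ran from 29.4% in cluster 4 to 69.2% in cluster 11 in Fcmr+/+. In Fcmr-/- it ran from 13.4% in cluster 7 and 13.5% in cluster 4 to 38.9% in cluster 6 and 51.7% in cluster 11. Clusters 4 and 9 alone held 30.4% of the Fcmr-/- cells and 1.61% of the Fcmr+/+ cells. Without them the log2 ratio between the libraries was -0.70 for Mt1 and -1.54 for Mt2, so both genes stayed lower in the clusters that hold many cells of both genotypes.

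The other members had no common direction between the genotypes within clusters. Mtf1 lay between 15.9 and 23.1 CPM in every cluster of either library, and no within-cluster ratio had an interval that left out 0. Slc30a1 was highest in the type I interferon-high cluster 10 (64.6 CPM in Fcmr+/+ and 70.8 CPM in Fcmr-/-), cluster 11 (60.0 and 59.1 CPM) and cluster 4 (59.4 and 60.1 CPM). It was lowest among dividing cells in Fcmr+/+ (30.1 CPM) and in cluster 3 in Fcmr-/- (33.1 CPM). The extreme clusters of Slc30a1 thus differed 2.14-fold in both libraries. The genotype ratio of Slc30a1 had an interval below 0 in clusters 1 and 8 and above 0 in cluster 5, among the 10 clusters. In cluster 9, outside the 10, it was 0.55 (0.03 to 1.07), on 29 Slc30a1 UMIs in Fcmr+/+. The type II interferon-high clusters 4 and 9, at 60.1 and 55.2 CPM of Slc30a1 in Fcmr-/-, were thus high in the exporter and low in both metallothioneins. Slc39a1 had an interval above 0 in clusters 6, 10 and 11 and below 0 in cluster 3, with ratios from -0.15 to 0.33. In the hypoxic-like cluster it was at 48.3 CPM in Fcmr+/+, its lowest there, and at 59.2 CPM in Fcmr-/-.

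The balance of the 2 metallothioneins also differed between the libraries. There were 4.16 Mt1 UMIs for each Mt2 UMI in Fcmr+/+ (interval 4.12 to 4.20) and 8.46 in Fcmr-/- (8.32 to 8.60). The ratio was higher in Fcmr-/- in each of the 11 clusters. In Fcmr+/+ it was lowest in cluster 11 (2.98) and highest in cluster 4 (8.10), and in Fcmr-/- it ran from 4.74 in cluster 11 to 18.1 in cluster 7. In both libraries the clusters with the most metallothionein had the smallest excess of Mt1 over Mt2.

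Across single cells, Mt1 and Mt2 were correlated. Pearson's r over thinned, log-scaled values was 0.59 over 6352 Fcmr+/+ cells and 0.47 over 7999 Fcmr-/- cells, with Spearman's rho of 0.57 and 0.41. Within clusters r ran from 0.30 to 0.71 in Fcmr+/+ and from 0.26 to 0.67 in Fcmr-/-, highest in cluster 11 in both libraries, so the relation did not rest on differences between clusters alone. Cells with Mt2 and no Mt1 made up 0.724% of Fcmr+/+ and 0.738% of Fcmr-/- cells. Cells with both made up 49.5% and 22.2%, and cells with Mt1 and no Mt2 made up 46.8% and 67.9%. Mt1 was seen in 96.3% and 90.1% of all thinned cells, so most cells with Mt2 would hold Mt1 even if the genes were unrelated. No relation was therefore read from these shares. Cells are not replicates and share a library, so these values describe 2 libraries and carry no p-value.

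No other pair of members was clearly correlated across the cells of a library. Over all cells of a library, the 9 other pairs had r between -0.023 and 0.020, Mtf1 with Mt1 being at -0.0078 in Fcmr+/+ and -0.011 in Fcmr-/-, and Slc30a1 with Mt1 at -0.0098 and 0.0023. With a mean of 0.107 Mtf1 UMIs and 0.211 Slc30a1 UMIs per thinned Fcmr+/+ cell, a relation between these genes could be hidden by counting noise. When cells were grouped by their Mt1 count, which sums over many cells, Mtf1 stayed between 0.10 and 0.116 UMIs per cell from 0 Mt1 UMIs to 21 or more in Fcmr+/+. In Fcmr-/- Mtf1 was at 0.107 UMIs per cell (0.0857 to 0.133) with 0 Mt1 UMIs and at 0.0646 (0.0389 to 0.101) with 21 or more, on 19 Mtf1 UMIs in the latter, and these intervals overlapped. Slc30a1 stayed between 0.205 and 0.232 UMIs per cell over the same groups in Fcmr+/+. In Fcmr-/- Slc30a1 was at 0.261 (0.227 to 0.299) with 0 Mt1 UMIs and at 0.218 (0.200 to 0.238) with 3 to 5. With 21 or more it was at 0.327 (0.264 to 0.399), on 96 Slc30a1 UMIs. That interval lay above the one for 3 to 5 Mt1 UMIs and overlapped the one for 0.

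Grouping cells by Mt1 also set Mt2 against a matched amount of Mt1. Cells with 3 to 5 Mt1 UMIs held on average 0.573 Mt2 UMIs in Fcmr+/+ (interval 0.537 to 0.612) and 0.256 in Fcmr-/- (0.236 to 0.277). In cells with 11 to 20 Mt1 UMIs the means were 3.22 (3.12 to 3.32) and 1.91 (1.81 to 2.02). With 21 or more they were 10.8 (10.6 to 11.1) in 624 Fcmr+/+ cells and 7.24 (6.94 to 7.56) in 294 Fcmr-/- cells. Mt2 was lower in Fcmr-/- at each of the 6 Mt1 levels, with intervals that did not overlap. A cell's Mt1 count carries sampling error of its own, so the match is approximate. Because Mt1 was lower in Fcmr-/- as a whole, that error tends to place cells with less Mt1 in each Fcmr-/- group. It therefore favors lower Mt2 there, and how much of the difference it makes up was not tested.

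**Figure D5:**
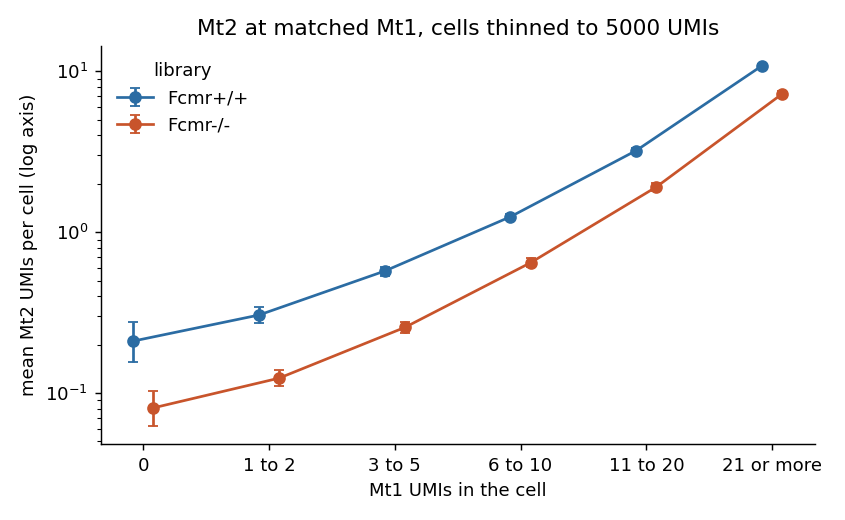
Mean Mt2 UMIs per cell (y axis, log) in cells grouped by their number of Mt1 UMIs (x axis), after thinning to 5000 UMIs, for Fcmr+/+ (blue) and Fcmr-/- (orange), with Poisson 95% intervals that cover counting error only. Both curves climb, and the Fcmr-/- curve lies below the other in all 6 groups.

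Among 5033 genes with at least 20 CPM in both libraries, Mt2 was the gene most like Mt1 across cells, by the smaller of the 2 libraries' correlations. Hmox1 came next, with r of 0.28 in Fcmr+/+ and 0.25 in Fcmr-/-. All others were weak: Mif, Arg1, Pf4, Gapdh, Bnip3, Ldha, Pgam1 and Aldoa had r between 0.14 and 0.20. Gapdh, Ldha, Pgam1 and Aldoa encode glycolytic enzymes, and their log2 ratios between the libraries ran from -0.09 for Pgam1 and Gapdh to 0.15 for Aldoa. Arg1, at 0.38, and Pf4, at -0.36, differed by more and in opposite directions. Over 21 groups of cells, 1 for each cluster and library with at least 50 cells, the gene most like Mt1 was again Mt2, with r of 0.98. Itga5 (0.90), Ell (0.89), Chka (0.88), Ube2d3 (0.87), Fkbp1a (0.86), Ube2j2 (0.84), Rb1cc1 (0.84), Chic2 (0.83) and 1810013L24Rik (0.82) followed. Their correlations with Mt1 across single cells were no higher than 0.074. The 21 groups come from 2 libraries, so differences between the libraries enter this measure along with differences between clusters.

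Values that moved with the genotype were set beside the metallothioneins. Depth did: split into 4 classes by UMIs per cell, Mt1 had ratios of -0.71, -0.87, -0.95 and -0.93 from the shallowest to the deepest class, and Mt2 had -1.54, -1.85, -2.09 and -1.92. Markers of other cells were present at low levels. The 7 melanoma markers summed to 78.0 CPM in Fcmr+/+ and 108 CPM in Fcmr-/-, with Mitf, which macrophages also express, the largest at 37.5 and 44.1 CPM. The T and NK cell markers summed to 1.03 and 14.7 CPM, with none of the 6 found in the files at 0, and the dendritic cell markers to 8.54 and 13.6 CPM. The 5 fibroblast markers summed to 0.646 and 0.586 CPM. In the 3192 Fcmr+/+ and 3988 Fcmr-/- cells with fewer than 2 UMIs of melanoma, lymphocyte, fibroblast, endothelial and keratinocyte markers, the log2 ratio was -0.82 for Mt1 and -1.84 for Mt2, close to the values over all cells. Mitf was among these markers, so cells were also left out for a transcript that macrophages express.

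Fkbp5 and Klf9 were lower in Fcmr-/- in each of the 10 clusters with 50 cells of both libraries, as were Mt1, Mt2 and Hmox1. Fkbp5 and Klf9 were named for their wide ratios and ranked 2 and 4 from the lowest of the 8701 genes. Nothing was therefore read from their direction within clusters. The mean log2 ratios were -1.89 for Fkbp5, -1.52 for Klf9 and -0.64 for Hmox1. Grouped by Mt1 count, thinned Fcmr+/+ cells with 0 Mt1 UMIs held on average 0.142 Fkbp5 UMIs (0.0975 to 0.199). With 21 or more they held 0.300 (0.258 to 0.346). In Fcmr-/- Fkbp5 did not climb, at 0.0568 (0.0414 to 0.0760) and 0.0204 (0.00749 to 0.0444), on 6 UMIs in the latter. For the same groups Klf9 was at 0.197 and 0.306 in Fcmr+/+ and at 0.0606 and 0.102 in Fcmr-/-, where the intervals overlapped. In cluster 9, with 34 Fcmr+/+ cells, Mt1 and Mt2 were also lower, at -0.55 and -1.38. There Fkbp5 was at -0.85 (-1.43 to -0.27), Klf9 at 0.04 (-0.89 to 0.97) and Hmox1 at 0.41 (0.31 to 0.50). In the 2495 Fcmr+/+ and 5731 Fcmr-/- cells without any UMI of Fkbp5, Klf9 or Zbtb16, the ratio was -0.64 for Mt1 and -1.36 for Mt2. In the 441 and 1429 cells without any UMI of Egr1 or Jun it was -0.82 and -1.88. These cell sets were chosen after the data were seen and are shallower than the rest. Mt1 and Mt2 were lower in Fcmr-/- in each of them, and what part the differences in glucocorticoid response, immediate-early or interferon genes had in the metallothionein levels was not tested. Genotype, library preparation and the animals behind each library cannot be told apart in this design.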

How the data were processed

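Single-cell RNA was measured in 1 Fcmr+/+ and 1 Fcmr-/- library of sorted TMPs with the 10x Chromium 3′ kit. Per the labels and methods, Cell Ranger mapped the reads to GRCm38, and the authors deposited its unnormalized UMI counts. The study's filters were applied to these counts: cells with 200 to 7000 genes and at most 30% mitochondrial UMIs, which removed 40 Fcmr+/+ and 18 Fcmr-/- cells, and, for clustering, genes in at least 3 cells. No doublet caller was run; the gene maximum was the only guard against doublets. A level is the gene's summed UMIs as CPM, with exact Poisson intervals, and 1 CPM was added before log2 ratios. Intervals of the ratios came from the Poisson errors of both sums. Shares of cells have Clopper-Pearson intervals. Thinning drew 5000 UMIs per cell without replacement. The variance-to-mean ratio, correlations and Mt1 groups used thinned cells, on log(1 + UMI per 10000) for correlations.

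Cells were clustered in R 4.3.3 (Seurat 5.3.0) on variable genes of log mean 0.0125 to 3 and dispersion over 0.5, 10 principal components, 30 neighbors and a Louvain resolution of 0.8. The study used Seurat 2.1.0. All metallothionein, SLC30 and SLC39 genes were left out of the variable genes. Cluster names were rebuilt here from marker lists and may differ from the study's. Other steps used Python 3.11.15, numpy 2.4.6, scipy 1.17.1 and pandas 2.3.3. Of these, only the log2 ratios with their intervals and the thinning were tested on simulated data. Gene positions came from GENCODE M21 and promoter windows from RefSeq, which held all 5 genes.

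The members and gene lists were chosen with earlier results of these data known. The text names the members, SLC30 and SLC39 genes with at least 5 CPM in either library, the 10 genes most like Mt1 by each measure, up to 4 genes of each other list with the widest ratios, cluster-leading genes and markers. Mt3, Mt4, Zbtb16, Nr3c1 and Hspa1a were added after their values were seen. Alternatives were other scalings, pseudocounts, filters, depths, cluster settings and subsets of cells.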

Additional observations from a re-analysis of the deposited data

How the results depend on the processing

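Mt1 and Mt2 were lower in Fcmr-/- under each of the 10 alternatives tried for the ratio between the libraries, with log2 ratios from -0.86 to -0.64 for Mt1 and from -1.88 to -1.36 for Mt2. The values for Mt1 and Mt2 were -0.81 and -1.77 as a mean of per-cell CPM and -0.80 and -1.73 after thinning. They were -0.82 and -1.84 in cells with fewer than 2 UMIs of other cells' markers, and -0.72 and -1.64 as a mean within clusters. Over 3 sets of cells chosen after seeing the data they were -0.64 and -1.36 without UMIs of Fkbp5, Klf9 or Zbtb16, -0.82 and -1.88 without Egr1 or Jun, and -0.70 and -1.54 without clusters 4 and 9. The ratio of Slc30a1 (0.18) turned to -0.042 within clusters and to -0.00589 without clusters 4 and 9, and the cause was not tested. The within-cluster means stayed within -0.73 to -0.70 for Mt1 and -1.62 to -1.56 for Mt2 over 3 other clusterings. The correlation of Mt1 and Mt2 was 0.65 (Fcmr+/+) and 0.50 (Fcmr-/-) at 8000 UMIs and 0.70 and 0.56 at full depth. Shares of cells climbed with depth: at 8000 UMIs Mt1 was seen in 98.9% and 95.7% and Mt2 in 59.5% and 28.5%, and at full depth Mt1 in 99.4% and 97.0% and Mt2 in 72.6% and 37.3%. With a filter of 20 CPM, 42 genes were 2-fold higher and 15 lower, against 69 and 25. No paired analysis was possible because each genotype had 1 library. Depth limits Mtf1 and the transporters, which had under 1 UMI per thinned cell.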
